A study of Mus musculus with 49 samples.

Results

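The genes Ly6a, Ly6d, Clu, Il33, Gja1, Spp1, Epcam and Prom1 were grouped here as markers of the epithelium of the fetal gut and of the gut that repairs itself after injury. They were taken from the deposited count matrix by matching Ensembl identifiers to these symbols, which gave 8 members of 46078 identifiers. Their levels were followed through 49 mouse libraries of 16 conditions, in which adult hepatocytes lost their differentiated state in culture and were turned towards either liver or intestine. All cells came from wild-type C57BL/6J mice, and RNA was measured by CEL-seq2, which counts the 3′ ends of transcripts with unique molecular identifiers (UMIs). Freshly isolated hepatocytes (FH, 3 libraries) came from livers of mice aged 10 weeks, after collagenase digestion and centrifugation. The same cells were plated on collagen with epidermal growth factor (EGF) at 20 ng/mL and sampled after 3 h and after 1, 2, 4, 7 and 14 days (3 libraries each). Cells kept for 7 days with 0.3 µM verteporfin, an inhibitor of the pairing of Yap with TEAD transcription factors, were set against cells kept with its solvent DMSO (2 libraries each).

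The passaged, dedifferentiated cells of the monolayer were termed dediHeps (5 libraries). Their derivatives outside the monolayer were dediHep aggregates, made in low-attachment wells, and dediHep-SOs, spherical organoids grown in Matrigel with Wnt3a, CHIR99021, EGF, Noggin and R-spondin1 (3 libraries each). The dediHep-BOs, budding organoids (3 libraries), came from dediHeps infected with a retrovirus for Cdx2, a transcription factor of the intestine, and grew without Wnt3a and CHIR99021. Organoids from the gut served as references, namely FIPC-SOs from intestinal progenitor cells of E13.5 embryos (3 libraries) and ISC-BOs from small-intestinal crypts of mice aged 10 weeks (4 libraries). CLiPs (3 libraries) were hepatocytes dedifferentiated by another published method, in monolayer with the inhibitors Y-27632 and A-83-01 and with CHIR99021. The study states that its experiments were repeated independently, while the labels give culture codes for dediHeps, aggregates and dediHep-SOs only. For the other groups they do not tie libraries to separate mice or cultures, so that p-values measure the spread between libraries, part of which may be technical.

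As background, the fetal intestinal epithelium and the adult epithelium after injury share a program that differs from that of the resting crypt, where Lgr5-positive stem cells divide under Wnt signals. In that program Yap is active, and cells grown from it in Matrigel tend to form smooth spheres rather than budding organoids with crypts. Ly6a (also known as Sca-1) and Clu are among its best-known markers, while Epcam marks epithelium of the gut in general and is absent from mature hepatocytes.

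By role, Ly6a and Ly6d encode small proteins of the Ly6 family that are tethered to the outer cell membrane. Prom1 (CD133) is a membrane glycoprotein of progenitor cells, and Epcam is an adhesion molecule of epithelia. Clu (clusterin) is a secreted chaperone, Spp1 (osteopontin) a secreted ligand of integrins and of Cd44, and Il33 a cytokine of the cell nucleus that acts on the receptor Il1rl1 once released. Gja1 (connexin 43) forms gap junctions between neighbouring cells. Spp1, Epcam and Prom1 are also genes of cholangiocytes, the lining cells of the bile duct, and Ly6a is also carried by endothelial cells and leukocytes.

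In GENCODE M21 on the mouse build GRCm38, Ly6d (chr15:74762056-74763620) and Ly6a (chr15:74994877-74998031) lay 231256 bases apart, both on the minus strand, within the cluster of Ly6 genes. Ly6 genes resemble each other in sequence, so counts of Ly6a and Ly6d may include reads of paralogs. Clu lay at chr14:65968483-65981547, Il33 at chr19:29925114-29960718, Gja1 at chr10:56377330-56402513 and Epcam at chr17:87635979-87651129, all on the plus strand. Spp1 was at chr5:104435118-104441050 on the plus strand and Prom1 at chr5:43993620-44102032 on the minus strand. Prom1 overlaps the antisense gene Gm16401, which had 44 counts in all libraries together.

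RefSeq promoters (GRCm38.p6) were matched for 5 of the 8 members, Il33, Gja1, Spp1, Epcam and Prom1. The 250 bases before each start were searched on both strands for CATTCC, the letters bound by TEAD factors, for TGANTCA of AP-1, and for TTTATG of Cdx factors. These letters occur in 12.6%, 6.75% and 10.8% of the 32851 promoter windows of the table, so a match is a description and not a binding site. The promoters of Il33, Gja1 and Epcam are shown because Il33 and Gja1 are followed in spherical against budding organoids, and Epcam in liver against gut cells. Each is given 5′ to 3′ up to the base before the start, at chr19:29924863-29925112, chr10:56377050-56377299 and chr17:87635729-87635978, all on the plus strand, with matched letters in capitals.
Il33: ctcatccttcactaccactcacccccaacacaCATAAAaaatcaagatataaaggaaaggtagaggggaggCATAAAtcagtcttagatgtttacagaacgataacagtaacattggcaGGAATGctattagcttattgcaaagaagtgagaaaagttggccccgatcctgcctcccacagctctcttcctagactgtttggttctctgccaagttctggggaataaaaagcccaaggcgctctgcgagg
Gja1: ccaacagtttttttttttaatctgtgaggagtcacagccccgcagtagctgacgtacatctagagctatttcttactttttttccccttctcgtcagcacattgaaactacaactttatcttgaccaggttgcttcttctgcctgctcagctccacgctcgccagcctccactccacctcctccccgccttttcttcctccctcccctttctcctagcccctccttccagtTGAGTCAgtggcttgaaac
Epcam: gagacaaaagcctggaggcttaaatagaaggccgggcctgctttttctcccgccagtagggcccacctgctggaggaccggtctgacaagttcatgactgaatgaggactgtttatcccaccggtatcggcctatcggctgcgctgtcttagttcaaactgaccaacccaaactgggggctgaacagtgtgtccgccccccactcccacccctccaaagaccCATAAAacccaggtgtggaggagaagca
In the Il33 window the TEAD letters lay 126 to 131 bases before the start, read on the opposite strand, and the Cdx letters on that strand at 174 to 179 and 213 to 218 bases, and the window of a second Il33 start, not shown, held the TEAD letters at 102 to 107 bases. The Gja1 window held the AP-1 letters 13 to 19 bases before the start, and the Epcam window the Cdx letters 23 to 28 bases before it. The windows of Prom1 held AP-1 letters at 82 to 88 bases before one start and at 183 to 189 bases before another, and those of Spp1 held none of the 3 motifs.

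The libraries held between 861047 and 3872936 counts (median 1976760), and levels are given as counts per 1000000 (CPM) scaled with TMM factors over all 49 libraries. A level resting on 3 counts in 1 library was 0.671 to 3.91 CPM, and differences below it were not detectable. A gene was called where its false discovery rate (FDR) in edgeR's quasi-likelihood test was below 0.1 and its log2 fold change beyond 2 in either direction, and the SE of a fold change was derived from the F value of that test. A UMI of 6 bases sets a ceiling on the count of a gene in a library, and 25 libraries held Clu counts over 80% of it. The markers of the labelled cell types followed the labels in most groups, since 6 hepatocyte genes summed to 17041 to 22878 CPM in FH and to 14.0 to 37.5 CPM in dediHep-SOs, in which Alb was at 0. The 6 intestinal epithelial genes summed to 3.26 to 47.9 CPM in FH, 493 to 1609 CPM in dediHeps and 1717 to 3590 CPM in the organoids. In bulk RNA, fewer cells of a type and less RNA per cell cannot be told apart. The third dediHep library stood apart from the other 4 in Epcam and held the highest Ly6a and Il33 of its group, the fourth ISC-BO library stood apart in Ly6a, and values that moved most without them are given both ways.

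**Figure D1:**
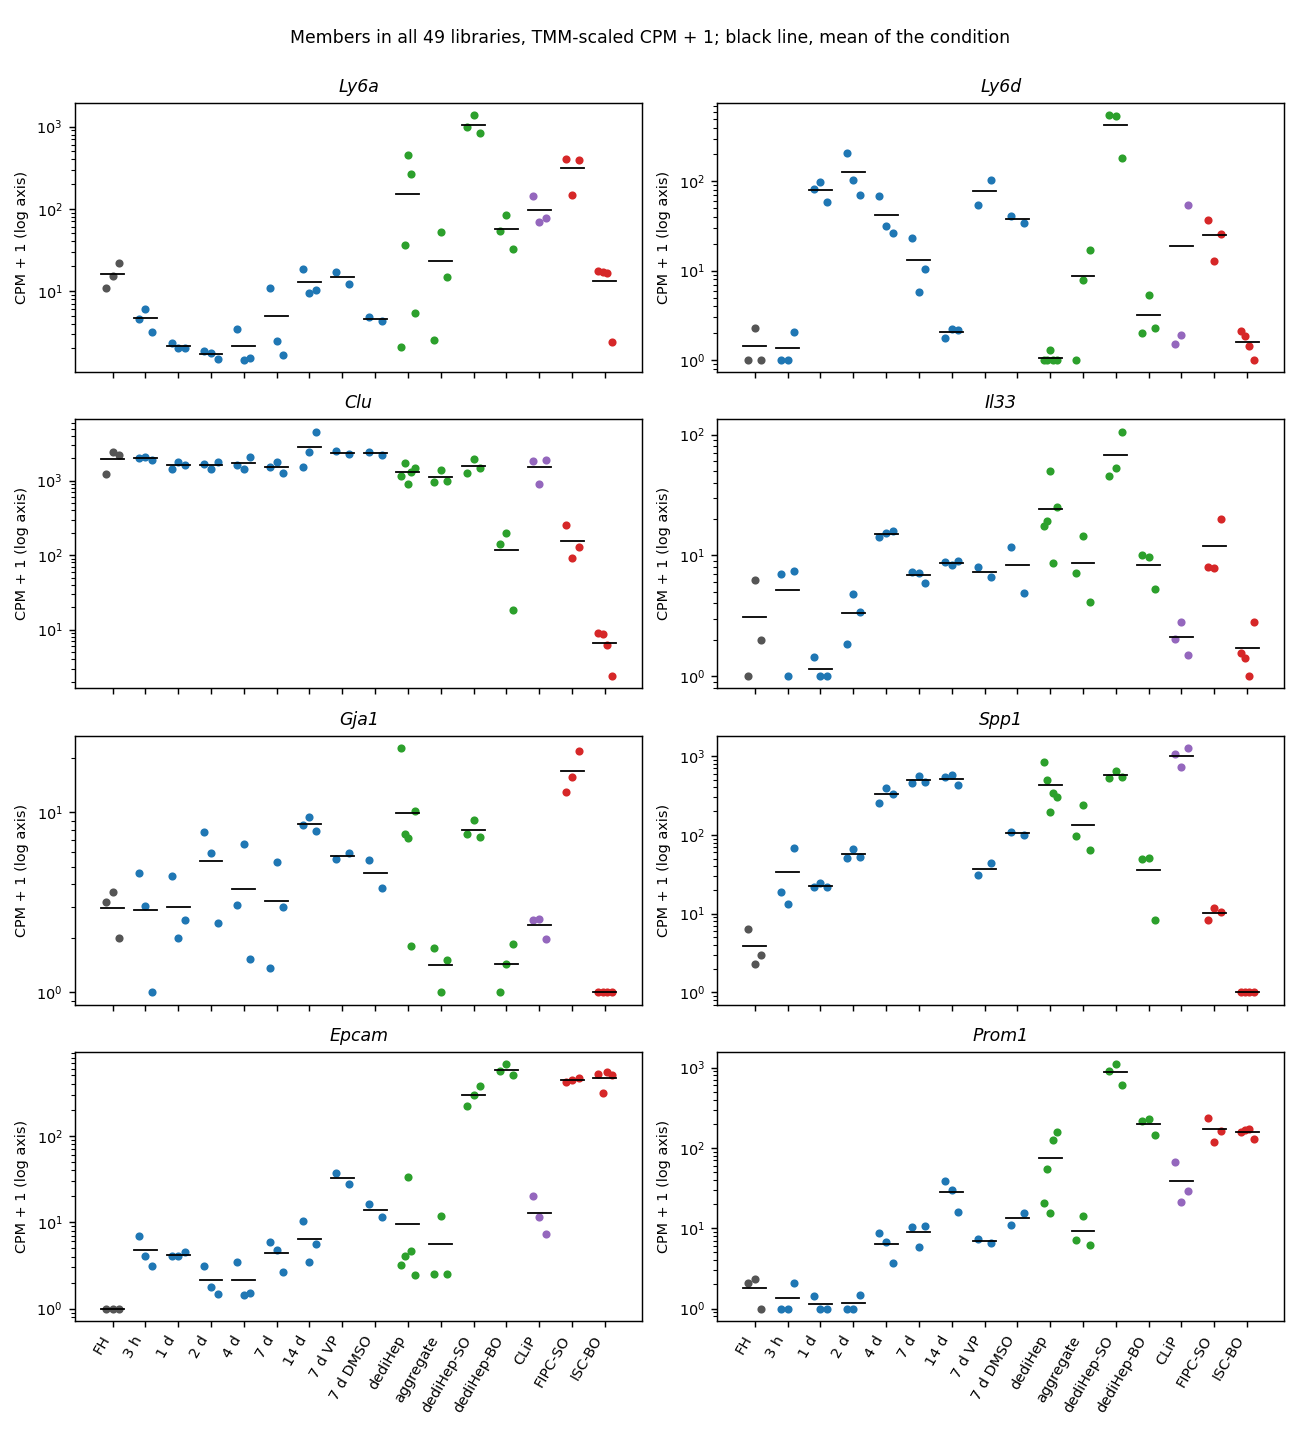
Level of each of the 8 genes in each of the 16 conditions, in CPM plus 1 on a log axis, with 1 point per library and a black line for the mean of the condition. Ly6a, Ly6d, Il33 and Prom1 reached their highest means in dediHep-SOs (1059, 423, 67.3 and 878 CPM), Epcam reached at most 36.6 CPM outside the organoids, and Gja1 and Spp1 were at 0 in all 4 ISC-BO libraries.

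The order of the conditions differed between the genes. Ly6a was at 978, 1372 and 827 CPM in the dediHep-SOs, above every other library, and its next mean was that of FIPC-SOs with 407, 147 and 389.9 CPM. In dediHeps its 5 libraries spread from 1.09 to 453 CPM with a median of 35.6 CPM, so this group overlapped FIPC-SOs above and CLiPs (144, 68.6 and 75.6 CPM) below. The lowest Ly6a lay in the early cultures, with 0.482 to 1.29 CPM at 1 and 2 days, a level of a few counts per library. Of the 15 steps from 1 condition to the next lower one in the order of means, 3 separated groups whose libraries did not overlap.

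Ly6d followed another course, with a first peak in culture and a second in spheres. It was at 547, 539 and 183 CPM in dediHep-SOs, and at 207, 102 and 69.4 CPM after 2 days in monolayer. The dediHeps themselves held 1 Ly6d count in 5 libraries together, and FH held 1 count in 3 libraries. FIPC-SOs were intermediate at 36.3, 11.9 and 24.6 CPM. Neighbouring conditions overlapped at each of the 15 steps of the Ly6d order.

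Prom1, the progenitor glycoprotein, was at 912, 1109 and 612 CPM in dediHep-SOs, above every other library. The other organoids lay close together, with means of 196 ± 43.7 CPM in dediHep-BOs (SD, n = 3), 172 ± 58.9 CPM in FIPC-SOs (n = 3) and 156 ± 18.9 CPM in ISC-BOs (n = 4), and their libraries overlapped. In dediHeps Prom1 spread from 14.5 to 157 CPM with a median of 53.4 CPM. FH and the cultures up to 2 days were at 0 to 1.30 CPM, which is at most 1 count a library.

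Epcam separated organoids from everything else. Its libraries ran from 221 to 680 CPM in the 4 kinds of organoids, with means of 579.5 ± 90.8 CPM in dediHep-BOs, 468 ± 102.5 CPM in ISC-BOs, 441 ± 26.9 CPM in FIPC-SOs and 295 ± 76.2 CPM in dediHep-SOs. No Epcam count was found in the 3 FH libraries. In dediHeps the third library held 32.7 CPM and the other 4 held 1.45 to 3.66 CPM, so the group mean of 8.61 CPM rests on that library. Among the organoids, dediHep-BOs, ISC-BOs and FIPC-SOs overlapped their neighbours in this order, while every dediHep-SO library lay below every FIPC-SO library.

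Clu, the secreted chaperone, was abundant in liver cells and in spheres of liver origin. Its deposited CPM ran from 899 to 4568 in FH, cultures, dediHeps, aggregates, dediHep-SOs and CLiPs, with overlap between nearly all of these groups. In 25 libraries Clu counts were over 80% of the UMI ceiling, where CPM also depends on depth. The lowest value was in CLiPs, the group with the deepest library (3872936 counts). The highest was in the 14-day cultures, the group with the shallowest (861047 counts). Range and overlap may therefore reflect depth. In organoids of the other kinds it was lower, at 139.7, 197 and 17.2 CPM in dediHep-BOs, 249, 90.0 and 126 CPM in FIPC-SOs, and 1.37 to 7.87 CPM in ISC-BOs. The ISC-BO values rest on 3 to 18 counts a library and did not overlap any other group.

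Il33, the alarmin, was at 44.7, 52.2 and 105 CPM in dediHep-SOs and at 7.73 to 49.1 CPM in dediHeps, so that the highest dediHep library, the third, lay among the spheres. CLiPs held 1.02, 1.79 and 0.488 CPM, and ISC-BOs 0 to 1.82 CPM. Every step in the Il33 order joined groups that overlapped.

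Gja1 was low throughout, with its highest mean of 15.9 ± 4.61 CPM in FIPC-SOs (12.0, 14.8 and 21 CPM). The dediHep-SOs were tightly grouped at 6.62, 8.03 and 6.34 CPM, while dediHeps ran from 0.814 to 21.9 CPM. Aggregates (0 to 0.773 CPM), dediHep-BOs (0 to 0.862 CPM) and ISC-BOs (0 in 4 of 4 libraries) were at the level of single counts.

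Spp1, the integrin ligand, had its highest mean in CLiPs. CLiPs held 1055, 720.0 and 1278 CPM, the dediHep-SOs 527, 651 and 536 CPM, and the dediHeps 193 to 832 CPM with a median of 344 CPM. FIPC-SOs held 7.34, 10.8 and 9.37 CPM, FH 5.44, 1.30 and 1.99 CPM, and no ISC-BO library held a count. With 7 of 15 steps free of overlap, the Spp1 order was the clearest of the 8.

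The first question asked of the data was when these genes change as hepatocytes dedifferentiate, and each time point was set against FH in a single fit of 7 groups. After 3 h, 2 of the 7 members tested were called (1 higher, 1 lower), where 6.91% of 12443 genes were called. After 1 day 4 of 7 were called (2 higher, 2 lower) against 17.4% of all genes, and after 2 days 3 of 7 (2 higher, 1 lower) against 21.3%. At 4 days the count was 5 of 7 (4 higher, 1 lower) against 23.8%, at 7 days 4 of 7 (3 higher, 1 lower) against 25.9%, and at 14 days 2 of 7, both higher, against 29.5%. Epcam was too low to be tested. The 6 comparisons share the 3 FH libraries. Ly6d, Prom1, Il33 and Spp1, with 1, 2, 5 and 8 counts in FH, passed the low-count filter through cultured cells. This favours values above FH in the cultures that carried them, so their higher calls cannot be weighed against these shares.

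Spp1 was the member called at every time. From 5.44, 1.30 and 1.99 CPM in FH it came to 18.0, 12.2 and 67.4 CPM at 3 h, 254, 396 and 329 CPM at 4 days and 540.3, 580.0 and 432 CPM at 14 days, and no library of these times overlapped FH. Its log2 fold change was 3.46 ± 0.60 (SE) at 3 h (edgeR FDR = 0.000739), 4.05 ± 0.58 at 2 days (FDR = 7.95e-06) and 7.27 ± 0.60 at 14 days (FDR = 1.25e-09). Without FH 1, which held most Spp1 counts of its group, these values were 4.26, 4.86 and 8.08, and without the third 3 h library that of 3 h was 2.3. The 6 cholangiocyte genes summed to 45.6 to 139 CPM in FH, 614 to 650 CPM at 3 h and 736 to 877 CPM at 14 days, with Krt19 at 0 in FH, at 3 h and at 1 day, and their part in the rise of Spp1 was not tested.

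Ly6d rose and returned. At 1 day it was at 80.4, 98.1 and 57.1 CPM, at 4 days at 67.0, 30.5 and 25.1 CPM, at 7 days at 22.0, 4.78 and 9.57 CPM and at 14 days at 0.751, 1.21 and 1.14 CPM. The libraries of 1 to 7 days all lay above the highest FH library of 1.30 CPM, and those of 14 days did not. Against the single count in FH the ratio was 211 at 1 day (95% counting interval 37.8 to 8365), 342 at 2 days (61.3 to 13533) and 33.8 at 7 days (5.92 to 1348). The calls had an edgeR FDR of 1.51e-06 at 1 day, 2.12e-07 at 2 days, 7.24e-06 at 4 days and 0.000853 at 7 days, and at 14 days the FDR was 0.57. Without FH 2, which held the single count, Ly6d was still called at 1 to 7 days. Against a group at 0 it could only come out higher, so this adds no support.

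Ly6a went the other way over the first days. FH held 9.79, 14.3 and 20.9 CPM, the libraries of 3 h held 2.14 to 5.08 CPM, and those of 2 days 0.482 to 0.849 CPM, all below FH. Its log2 fold change was -3.84 ± 0.78 at 1 day (edgeR FDR = 0.000568), -4.44 ± 0.81 at 2 days (FDR = 0.000152) and -3.74 ± 0.77 at 4 days (FDR = 0.000464). At 14 days Ly6a was at 17.6, 8.49 and 9.16 CPM, which overlapped FH (log2 fold change -0.48, FDR = 0.563).
The Ly6a calls at 3 h (-2.03 ± 0.75, FDR = 0.081) and 7 days (-2.10 ± 0.67, FDR = 0.0147) were weak. That of 3 h was lost without FH 2 (FDR = 0.156), FH 3 (0.251) or any of the 3 h libraries (0.128 to 0.223), and that of 7 days without FH 3, 7-day 2 or 7-day 3, where the log2 fold change fell within 2 (-1.77, -1.75 and -1.49). Without the first 7-day library, which held 9.71 CPM, the 7-day value was -3.93, and without the first 4-day library that of 4 days was -4.89. The 6 endothelial genes summed to 176 to 304 CPM in FH, 54.6 to 111 CPM at 3 h, 9.63 to 47.0 CPM at 4 days and 4.85 to 9.16 CPM at 14 days, and the 6 leukocyte genes to 47.9 to 162 CPM in FH, 3.05 to 12.8 CPM at 3 h, 2.31 to 37.0 CPM at 7 days and 9.16, 49.6 and 60.7 CPM at 14 days. Both sums were lower at 3 h than in FH, as Ly6a was, and their part was not tested.

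Prom1 came late. It was at 7.76, 5.67 and 2.68 CPM at 4 days, 9.33, 4.78 and 9.57 CPM at 7 days and 37.5, 28.5 and 14.9 CPM at 14 days, above the highest FH library of 1.30 CPM each time. Against 2 counts in FH the ratio was 7.52 at 4 days (95% counting interval 1.94 to 64.4), 11 at 7 days (2.93 to 93.1) and 41.5 at 14 days (11.3 to 346), with an edgeR FDR of 0.0244, 0.00583 and 3.69e-05. The 4-day call was lost without FH 3, which held no Prom1 count (2.00, FDR = 0.115), and the log2 fold changes of 7 and 14 days then went from 3.14 to 2.52 and from 4.92 to 4.29.

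Il33 was at 13.1, 14.4 and 15 CPM at 4 days, above FH with 0, 5.22 and 0.997 CPM, and was called there (log2 fold change 2.71 ± 0.82, edgeR FDR = 0.0112). The lower call at 1 day (FDR = 0.0593), when 1 count remained in 3 libraries, rested on few counts, with a ratio 11.7 times lower than FH and a counting interval of 1.30 to 552, and was lost without FH 2 (FDR = 0.565), 1-day 2 (0.137) or 1-day 3 (0.144). Without FH 2, which held most of the Il33 of its group, the value of 4 days was 4.50, and Il33 was called higher at 7 days (3.20, FDR = 0.0387) and 14 days (3.61, FDR = 0.0164). Gja1 was called at no time point, with log2 fold changes from -0.05 at 1 day to 1.85 at 14 days (FDR = 0.105). Epcam stood at 0.436 to 9.39 CPM in the cultures, at least 5.70-fold above FH at 14 days when 3 counts are taken for the empty FH group.

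Clu counts stood near the limit of the UMIs in these cultures. FH held 1141, 1853 and 2192 Clu counts, and the 7-day and 14-day libraries held at least 3727. As deposited, Clu lay between -0.51 and 0.45 on the log2 scale against FH at all 6 times and was never called. After correction for tags drawn more than once, its log2 fold change was 0.25 at 1 day (edgeR FDR = 0.711), 1.29 at 7 days (FDR = 0.0277) and 2.08 at 14 days (FDR = 0.000957), the last of which passed both thresholds. The corrected mean rose from 2169 CPM in FH to 5751 CPM at 7 days and 9303 CPM at 14 days, against 1948, 1523 and 2841 CPM as deposited. Close to the ceiling the correction turns a few counts into large differences, so these corrected values have a wide error.

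**Figure D2:**
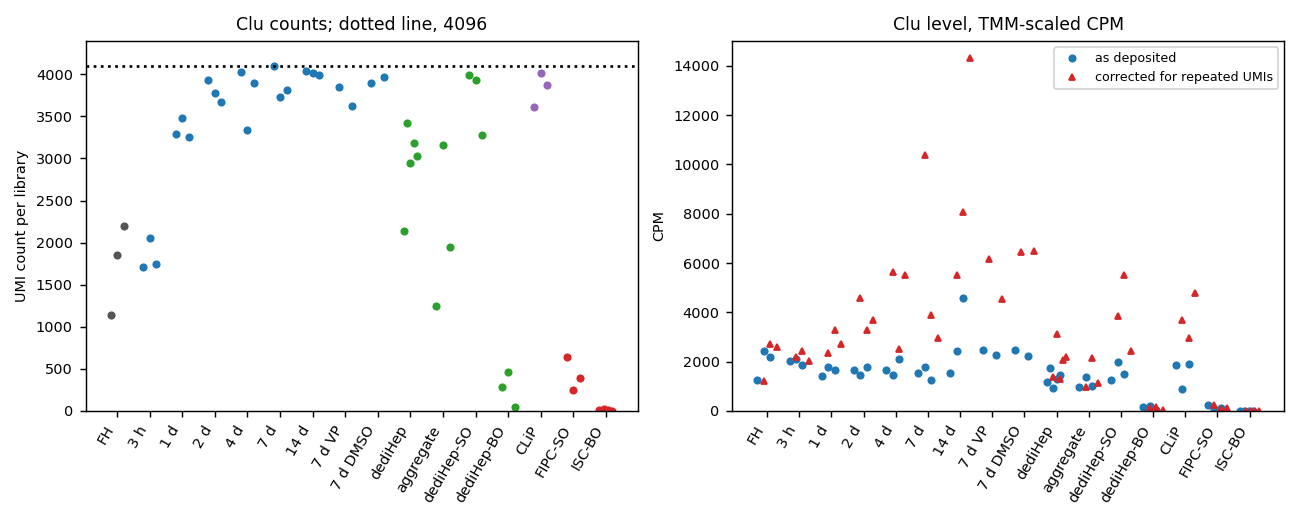
Left, Clu counts of each library by condition with a dotted line at the number of tags that a UMI of 6 bases allows. Right, Clu in CPM as deposited and after correction for repeated tags, where the mean of the 14-day cultures moved from 2841 to 9303 CPM and that of ISC-BOs from 5.52 to 4.55 CPM.

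In the passaged dediHeps 3 of the 6 members tested were called against FH, all higher, where 25.7% of 11276 genes were called. These were Prom1, Il33 and Spp1, with 2, 5 and 8 counts in FH. They passed the low-count filter through the dediHeps, which favours a higher value, so their calls cannot be weighed against that share. Spp1 had a log2 fold change of 6.97 ± 0.77 (edgeR FDR = 3.84e-05) and Il33 of 3.34 ± 0.92 (FDR = 0.0143), the latter from 0 to 5.22 CPM in FH to 7.73 to 49.1 CPM in dediHeps. Without FH 1 the Spp1 value was 7.79, and without FH 2 that of Il33 was 5.13. Prom1 was at 95 times the 2 counts of FH, with a counting interval of 26.2 to 786 (log2 fold change 6.26, FDR = 0.00182, and 5.64 without FH 3). For these 3 genes no dediHep library overlapped FH, nor for 40.4% of all genes tested.
The other members were not called. Ly6a was at 3.09 ± 1.5 on the log2 scale (FDR = 0.131), as dediHeps 1 and 5 held 1.09 and 4.34 CPM, below FH, and dediHeps 3 and 4 held 453 and 262 CPM. It passed the thresholds without dediHep 1 (3.41, FDR = 0.037) or dediHep 5 (3.41, FDR = 0.0706), and without dediHep 3 it came to 2.08 (FDR = 0.268). Gja1 (2.01 ± 1.01, FDR = 0.143) passed without dediHep 4 (2.31, FDR = 0.0358). Clu was at -0.78 ± 0.32 (FDR = 0.0777), inside the fold threshold. Epcam, untested, was at least 9.92-fold above the empty FH group, a ratio that rests mainly on the third library. The 6 endothelial genes summed to 0 to 0.965 CPM in dediHeps, with Cdh5, Kdr, Stab2 and Clec4g at 0, and the 6 leukocyte genes to 10.5 and 7.33 CPM in dediHeps 3 and 4 and to 2.19, 5.08 and 1.45 CPM in dediHeps 1, 2 and 5, with Tyrobp and Adgre1 at 0. The part of either in the Ly6a level was not tested.

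Formation of aggregates asked whether the genes recede when dediHeps are brought back towards hepatocytes. The 6 hepatocyte genes summed to 8115 to 11979 CPM in aggregates against 926 to 4549 CPM in dediHeps, and the UMI ceiling may cut these sums short. Of the 6 members tested, 2 were called lower, where 9.51% of 11265 genes were called in either direction. Gja1, with 2 counts in aggregates, passed the low-count filter through dediHeps and could only come out lower. Its call cannot be weighed against that share. Gja1 was at 0.773, 0 and 0.513 CPM in aggregates and at 0.814 to 21.9 CPM in dediHeps, so that no library overlapped, and it was 22.5 times lower with a counting interval of 6.07 to 189 (edgeR FDR = 0.0361). Prom1 was at 6.19, 13 and 5.13 CPM against 14.5 to 157 CPM, again without overlap (log2 fold change -3.09 ± 0.83, FDR = 0.0344). Without dediHep 1, the library with the most Gja1, its log2 fold change went from -4.35 to -3.71. The Gja1 call was lost when any 1 of the 3 aggregates was left out (FDR = 0.101 to 0.129) and the Prom1 call without aggregate 1 (0.129) or 3 (0.135).
Spp1 was at 95.9, 239 and 64.1 CPM in aggregates and at 193 to 832 CPM in dediHeps, with a log2 fold change of -1.67 ± 0.55 (FDR = 0.0665). The cultures pair 3 aggregates with 3 monolayers, and with the culture as a block Spp1 was called lower (-2.15, FDR = 0.0129), as it was without aggregate 2 (-2.39, FDR = 0.0491). The cholangiocyte genes summed to 262 to 363 CPM in aggregates against 583 to 1394 CPM in dediHeps, with Krt19 called lower (-3.10), and their part in Prom1 and Spp1 was not tested. Il33 (-1.57, FDR = 0.128), Ly6a (-2.71, FDR = 0.248, and -1.67 without dediHep 3) and Clu (-0.20) were not called. Ly6d was at 0, 6.95 and 15.9 CPM in aggregates against the single count of dediHeps, and was too low to be tested.

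The spheres were compared with the monolayers from which they were grown. Of the 8 genes tested between dediHep-SOs and dediHeps, 3 were called, all higher, where 8.76% of 11470 genes were called. Ly6d and Epcam, too low to be tested in dediHeps against FH or in aggregates, passed the low-count filter here through the dediHep-SOs. They could therefore only come out higher, and their calls cannot be weighed against that share. Ly6d went from 1 count in 5 libraries to 183 to 547 CPM, a ratio of 5042 with a counting interval of 904 to 199197 (edgeR FDR = 4.52e-06). Epcam went from 1.45 to 32.7 CPM to 221, 293 and 373 CPM (log2 fold change 5.05 ± 0.85, FDR = 0.00314, and 6.82 without dediHep 3), and Prom1 from 14.5 to 157 CPM to 612 to 1109 CPM (3.62 ± 0.67, FDR = 0.00518). In each of the 3 genes every sphere library lay above every monolayer library, where 20.1% of all genes tested did not overlap. The cholangiocyte genes summed to 583 to 1394 CPM in dediHeps and to 1780 to 2386 CPM in dediHep-SOs, beside Epcam and Prom1, and their part was not tested.
Ly6a had a ratio of means of 7.00 and no overlap, yet its log2 fold change of 2.85 ± 1.21 was not called (FDR = 0.167). It was called with the culture as a block (4.66, FDR = 0.0704) and without dediHep 3 (3.85, FDR = 0.0794). Il33 was at 1.56 ± 0.52 (FDR = 0.0875) and, without dediHep 3, at 2.04 (FDR = 0.0193). Clu (0.28), Spp1 (0.40) and Gja1 (-0.34) were not called, and their sphere and monolayer libraries overlapped. Spheres held 3278 to 3993 Clu counts and monolayers 2132 to 3424, some of them near the UMI ceiling, and after correction for repeated UMIs the Clu value was 1.02 (FDR = 0.104).

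**Figure D3:**
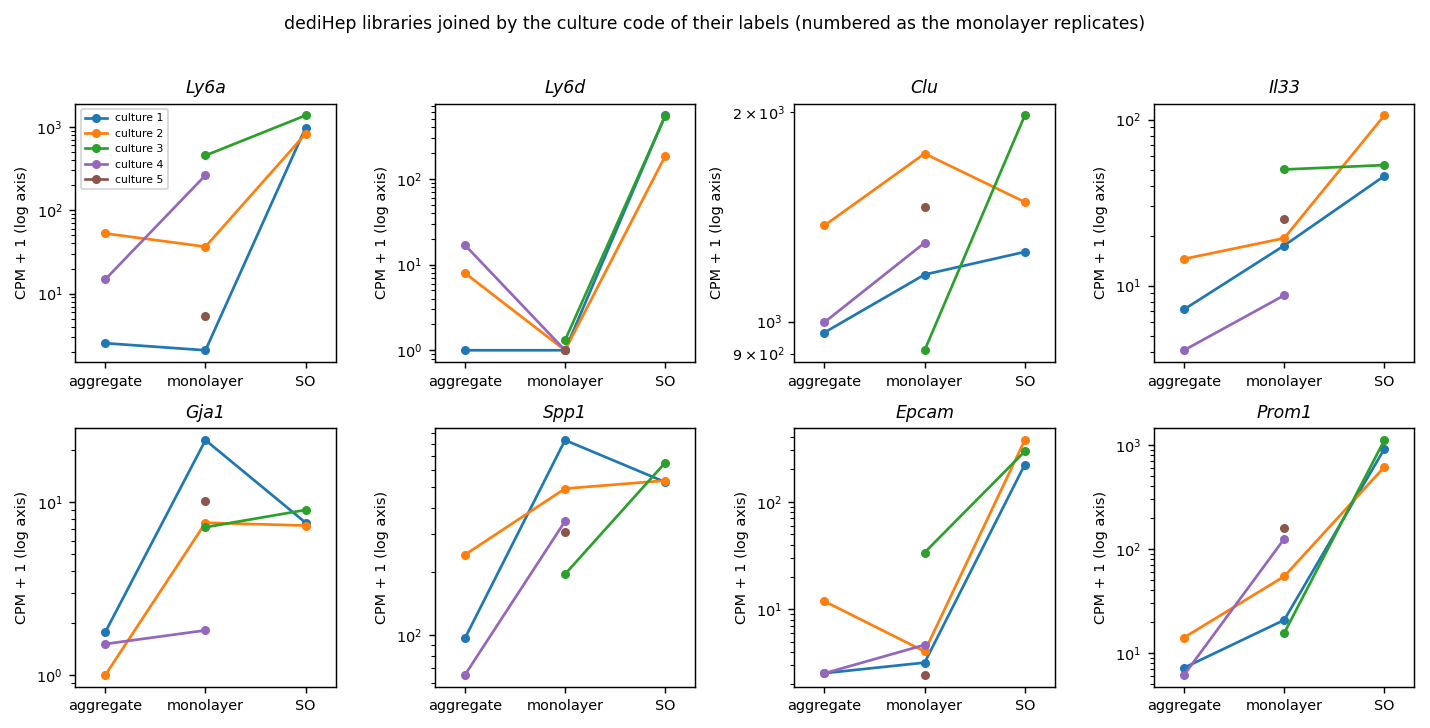
Level of each gene in CPM plus 1 on a log axis, in the dediHep aggregates, the dediHep monolayers and the dediHep-SOs, with lines joining libraries that share a culture code (cultures 1 to 5). Lines of Ly6a, Ly6d, Epcam and Prom1 climb from monolayer to sphere in each culture that has both, and lines of Prom1 and Spp1 drop from monolayer to aggregate.

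Whether spheres of liver origin resemble spheres of fetal gut was asked by setting dediHep-SOs against FIPC-SOs. Of the 8 members 5 were called, all higher in dediHep-SOs, where 8.91% of 11608 genes were called in either direction. Spp1 was 62.2 times higher by the ratio of means, with 527 to 651 CPM against 7.34 to 10.8 CPM (log2 fold change 5.94 ± 0.31, edgeR FDR = 2.01e-05). Ly6d was 17.4 times higher (4.10 ± 0.54, FDR = 0.000921) and Clu 10.1 times (3.32 ± 0.40, FDR = 0.000585), with counts of dediHep-SOs near the UMI ceiling and a value of 4.84 after correction for repeated UMIs. Il33 was 6.14 times higher (2.59 ± 0.52, FDR = 0.00839, and 3.25 without FIPC-SO 3) and Prom1 5.09 times (2.33 ± 0.33, FDR = 0.00146). All 8 members were without overlap between these groups, as were 34% of all genes tested.
Ly6a was at 1.73 ± 0.39 (FDR = 0.0146), under the fold threshold, and after correction for repeated UMIs at 2.24 (FDR = 0.00914), since dediHep-SOs held 1827 to 3106 Ly6a counts. The remaining 2 genes had lower values in dediHep-SOs without being called, Gja1 with -1.20 ± 0.38 (FDR = 0.0584) and Epcam with -0.59 ± 0.26 (FDR = 0.158). Mesenchymal genes summed to 369.6 CPM in the third FIPC-SO library and to 3.62 and 10.4 CPM in the others, and Gja1 and Il33 were highest in that library at 21 and 19.1 CPM, a part that was not tested. The cholangiocyte genes summed to 1780 to 2386 CPM in dediHep-SOs and to 879 to 1299 CPM in FIPC-SOs, and their part in Spp1, Prom1 and Epcam was not tested.

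Between spherical and budding organoids of liver origin, 7 of the 8 members were called, all lower in dediHep-BOs, where 11.3% of 11301 genes were called in either direction. The median log2 fold change of the 8 was -3.76. Among the surface proteins, Ly6d went to 1.00, 4.32 and 1.29 CPM (log2 fold change -7.51 ± 0.63, edgeR FDR = 5.9e-05), Ly6a to 52.1, 83.0 and 31.0 CPM (-4.24 ± 0.39, FDR = 8.05e-05) and Prom1 to 214, 227 and 146 CPM (-2.16 ± 0.28, FDR = 0.000533). Among the secreted factors, Spp1 went to 48.1, 50.6 and 7.33 CPM (-4.01 ± 0.57, FDR = 0.000864), Clu fell by 3.72 ± 0.68 on the log2 scale (FDR = 0.00338, and -5.26 after correction for repeated UMIs) and Il33 went to 9.01, 8.64 and 4.31 CPM (-3.20 ± 0.46, FDR = 0.000882). Gja1 kept 3 counts in 3 libraries, 15.3 times below the spheres with a counting interval of 4.94 to 76.5 (FDR = 0.00258). Ly6d, Il33 and Gja1 were too low to be tested between dediHep-BOs and ISC-BOs. They passed the low-count filter here through the dediHep-SOs, which favours a lower value in dediHep-BOs. Ly6d came to -8.42 without dediHep-BO 2, and Gja1 from -3.80 to -4.58 without dediHep-BO 3.
No library of the spheres overlapped those of the buds in any of these 7 genes, nor in 46.3% of all genes tested. Epcam went the other way, with 503 to 680 CPM in dediHep-BOs against 221 to 373 CPM, 1.96 times higher by the ratio of means (0.97 ± 0.26, FDR = 0.022), inside the fold threshold. The Prom1 call stood near the fold threshold and came to -1.98 without dediHep-SO 2 and to -1.93 without dediHep-BO 3. The budding form, the Cdx2 retrovirus and the medium without Wnt3a and CHIR99021 came together in these libraries, so their parts cannot be told apart. Mesenchymal genes summed to 204, 165 and 4.31 CPM in the 3 dediHep-BO libraries and to at most 0.945 CPM in dediHep-SOs, and the library with 4.31 CPM had the lowest Clu, Spp1 and Ly6a of the group.

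Spherical and budding organoids derived from the gut were compared in the same way. Between FIPC-SOs and ISC-BOs 6 of 8 members were called, all higher in FIPC-SOs, where 6.62% of 11644 genes were called in either direction. Ly6a was 25.5 times higher (log2 fold change 4.73 ± 0.61, edgeR FDR = 0.000426), Ly6d 40.4 times (5.32 ± 0.62, FDR = 0.00026), Clu 28.1 times (4.87 ± 0.52, FDR = 0.000145) and Il33 15.6 times (3.95 ± 0.72, FDR = 0.00378, with 3.27 without FIPC-SO 3 and 4.99 without ISC-BO 4). Mesenchymal genes summed to 369.6 CPM in FIPC-SO 3, where Il33 and Gja1 were highest, and to 2.54 to 8.20 CPM in ISC-BOs, and their part was not tested. Gja1 and Spp1 had no count in ISC-BOs and were at least 46.7-fold and 26.6-fold higher (FDR = 0.000344 and 0.000692). Both, like Ly6d and Il33 with 5 and 6 counts in ISC-BOs, passed the low-count filter through FIPC-SOs and could only come out higher. No library of the 2 groups overlapped in these 6 genes, nor in 23.8% of all genes tested.
Epcam (-0.02 ± 0.21, FDR = 0.974) and Prom1 (0.20 ± 0.27, FDR = 0.715) were not called, and their libraries overlapped. Ly6a in ISC-BOs was at 16.3, 16.1, 15.7 and 1.37 CPM, and without the last of these libraries it was still called, at 4.35. Age of the donor and form of the organoid go together in this pair, and cannot be told apart. Medium goes with them, as the study describes Wnt3a and CHIR99021 for spheres of FIPCs and kept crypts without both.

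Budding organoids of both origins were then compared, to ask how they differed by origin. Of the 5 members tested, 3 were called higher in dediHep-BOs, where 3.05% of 11303 genes were called in either direction. Spp1, with 48.1, 50.6 and 7.33 CPM against no count in ISC-BOs, was at least 99.8-fold higher (edgeR FDR = 0.00417). It passed the low-count filter through dediHep-BOs and could only come out higher. Clu was 21.4 times higher (log2 fold change 4.48 ± 0.73, FDR = 0.00535, and 3.86 without dediHep-BO 2) with 17.2 to 197 CPM against 1.37 to 7.87 CPM. Clu (139.7 and 197 CPM) and Spp1 (48.1 and 50.6 CPM) were higher in the libraries whose mesenchymal genes summed to 204 and 165 CPM than in the third (17.2 and 7.33 CPM, with a sum of 4.31 CPM), where ISC-BOs held sums of 2.54 to 8.20 CPM. That part was not tested, and origin and the Cdx2 retrovirus, which ISC-BOs lacked, cannot be told apart. Ly6a was 4.48 times higher (2.22 ± 0.56, FDR = 0.0441) with 31.0 to 83.0 CPM against 1.37 to 16.3 CPM.
The groups did not overlap in these 3 genes, nor in 22.1% of all genes tested. The Ly6a call was lost without dediHep-BO 1 (FDR = 0.123), dediHep-BO 2 (1.78, FDR = 0.199), ISC-BO 1 (FDR = 0.102) or ISC-BO 4, the library that stood apart (1.85, FDR = 0.0176). Epcam (0.37, FDR = 0.332) and Prom1 (0.38, FDR = 0.355) were not called. Il33 was too low for the test, at 4.31 to 9.01 CPM against 0 to 1.82 CPM.

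Whether the step from sphere to bud differed by origin was tested directly, as the change from dediHep-SOs to dediHep-BOs minus that from FIPC-SOs to ISC-BOs. Only dediHep-BOs had the Cdx2 retrovirus, and the gut-derived spheres and buds came from fetal and adult donors. Origin therefore cannot be told apart from the retrovirus or from donor age. Of the 8 members 1 was called, where 9.45% of 12379 genes were called. That was Gja1, with a difference of 4.46 ± 1.37 on the log2 scale (edgeR FDR = 0.061), which depends on the empty ISC-BO group and is no bound, and which was lost without dediHep-SO 1, FIPC-SO 2 or 3, or dediHep-BO 2 or 3 (FDR = 0.103 to 0.205). For Prom1 the difference was -1.98 ± 0.39 (FDR = 0.00626), just inside the fold threshold, where the liver-derived forms differed by -2.16 and FIPC-SOs from ISC-BOs by 0.20 on that scale. Epcam differed by 0.92 ± 0.34 (FDR = 0.0895).
For Ly6a (0.46), Clu (1.13), Il33 (0.72), Ly6d (-2.22 ± 1.27, FDR = 0.247) and Spp1 (3.46 ± 1.60, FDR = 0.17) no difference by origin passed the test. Spp1 was called without dediHep-BO 3, the library with its lowest level (3.99, FDR = 0.0143).

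CLiPs, the dedifferentiated hepatocytes of the other protocol, were set against dediHeps. Of 7 members tested 1 was called, where 3.04% of 11567 genes were called. Il33 was at 1.02, 1.79 and 0.488 CPM in CLiPs and at 7.73 to 49.1 CPM in dediHeps, with no overlap (log2 fold change -4.29 ± 0.75, edgeR FDR = 0.018). With 11 counts in CLiPs, Il33 passed the low-count filter through dediHeps. This favours a lower value in CLiPs, so the call cannot be weighed against that share. The call was lost without CLiP 1 (FDR = 0.11), and the value came to -4.87 without CLiP 2.
Spp1 was 2.35 times higher by the ratio of means (1.18 ± 0.45, FDR = 0.219), with 720.0 to 1278 CPM against 193 to 832 CPM. Gja1 (-2.71, FDR = 0.166) was called without dediHep 4 (-3.01, FDR = 0.0634). Ly6d was at 0.512, 0.894 and 52.7 CPM, so that 1 CLiP library held nearly all its counts. Ly6a (-0.68), Prom1 (-0.97), Epcam (0.39) and Clu (0.20) were not called, and without dediHep 3 Ly6a was at 0.34 and Epcam at 2.14 (FDR = 0.108). The leukocyte genes summed to 70.7 to 149 CPM in CLiPs against 1.45 to 10.5 CPM in dediHeps, all from Csf1r and Cd68, as Ptprc, Tyrobp, Clec4f and Adgre1 were at 0.

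Verteporfin was added to ask what part of the change needs Yap. None of the 7 members tested was called between verteporfin and DMSO, where 0.269% of 10400 genes were called and 961 genes had an unadjusted p under 0.05. Among those 961 were 5 members, Ly6a, Ly6d, Spp1, Epcam and Prom1. Spp1 was at 29.5 and 42.9 CPM with verteporfin and 109 and 97.4 CPM with DMSO (log2 fold change -1.52 ± 0.30, edgeR FDR = 0.126), and Prom1 at 6.42 and 5.6 CPM against 10.1 and 14.5 CPM (-1.03 ± 0.46, FDR = 0.536).
Among these 5, Ly6a, Ly6d and Epcam had higher values with verteporfin. Ly6a was at 16 and 11.2 CPM against 3.79 and 3.34 CPM (1.91 ± 0.50, FDR = 0.245), Ly6d at 53.3 and 101 CPM against 40.4 and 33.4 CPM (1.05 ± 0.35, FDR = 0.403) and Epcam at 36.6 and 26.7 CPM against 15.1 and 10.6 CPM (1.30 ± 0.37, FDR = 0.314). The libraries of both treatments did not overlap in these 5 genes, nor in 40% of all genes tested, and none of the 5 passed the test. Ly6a was called without verteporfin 2 (2.18, FDR = 0.093). Clu (0.01) stood near the UMI ceiling in all 4 libraries, with 3626 to 3966 counts. Side by side and untested, the DMSO libraries and the untreated 7-day cultures had Spp1 at 97.4 and 109 CPM against 460.0 to 552 CPM and Ly6d at 33.4 and 40.4 CPM against 4.78 to 22.0 CPM.

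Other genes of the same program were read from a list of 16, among them Anxa1, S100a6 and Cd44. This list and those below were chosen with earlier results of these data known, so their counts are no independent support. In dediHeps against FH 13 of 14 tested were higher and none lower, with a median log2 fold change of 8.09 against 3.21 for the members and 0.08 for all genes. Among them S100a6 had been called from 1 day on (8.52 ± 0.57 against FH), when 8 of 13 were called higher, and at 4, 7 and 14 days 12 of 13 were. At 3 h 3 were higher and 2 lower, and at 2 days 11 were higher. Of all genes, 25.7% were called in dediHeps, and 6.91%, 17.4%, 21.3%, 23.8%, 25.9% and 29.5% from 3 h to 14 days. Genes with few counts in FH pass the low-count filter through the cultured cells, which favours a higher value. How many of the list did so was not counted, so its counts and median cannot be weighed against all genes.
In dediHep-BOs against dediHep-SOs 7 of 15 were lower and 2 higher (median -1.67), with Basp1 (-6.91) and Msln (-5.43) among the lower ones. In FIPC-SOs against ISC-BOs 6 of 16 were higher and none lower (median 1.53), among them Ereg and Basp1, which had no count in ISC-BOs. Between dediHep-SOs and dediHeps 2 of 15 were higher and 1 lower, and between dediHep-SOs and FIPC-SOs 2 of 16 were higher, Basp1 (4.40) among them, and 3 lower, with Anxa10 (-5.02) and Ereg (-3.75). Aggregates against dediHeps had 2 of 14 lower, Anxa1 (-2.80) and Msln (-2.43), dediHep-BOs against ISC-BOs 1 of 12 higher, Msln (2.49), and CLiPs against dediHeps 3 of 14 lower, Sprr1a (-4.71), Msln (-2.65) and Areg. With verteporfin 0 of 14 were called, and the difference by origin gave 3 of 16, all positive. The shares of all genes called were 11.3%, 6.62%, 8.76%, 8.91%, 9.51%, 3.05%, 3.04%, 0.269% and 9.45%, in the order in which these comparisons are named.

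Of 10 genes of adult crypt stem cells, 6 of 7 tested were higher in dediHep-SOs than in dediHeps, led by Ascl2 (8.07 ± 0.66) and Lgr5 (7.54 ± 0.52). Only 2 of the 10 could be tested in dediHeps against FH and in aggregates against dediHeps. Most of the 7 thus passed the low-count filter through the dediHep-SOs and could only come out higher. In dediHep-BOs against dediHep-SOs 3 of 9 were higher and none lower, Smoc2 (7.65 ± 0.73), Rgmb (2.64) and Cdca7 (2.60), the direction opposite to that of the 7 members. Smoc2 was lower in dediHep-SOs than in FIPC-SOs (-5.93), the only one of 9 called there. In FIPC-SOs against ISC-BOs 1 of 9 was called, Tnfrsf19 (2.07), and in dediHep-BOs against ISC-BOs 2 of 9, Tnfrsf19 (2.32) and Rnf43 (2.06). The shares of all genes called were 8.76% in dediHep-SOs against dediHeps and 11.3% in dediHep-BOs against dediHep-SOs. They were 8.91%, 6.62% and 3.05% in the 3 comparisons with gut organoids, in the order named.
Against FH 1 of 3 was called at 1 and 2 days, Rnf43 (-2.10 and -2.54), and 1 of 3 at 7 and 14 days, Ascl2, which had no count in FH. At these times 17.4%, 21.3%, 25.9% and 29.5% of all genes were called. Rnf43 was lower in aggregates than in dediHeps (-2.45), and no gene of this list was called in dediHeps against FH, at 3 h or 4 days, in CLiPs or with verteporfin.

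A last list held 11 receptors and partners of the members, of which 8 could be tested. Il1rl1, the receptor of Il33, was among those not tested. The hepatocyte connexins Gjb1 and Gjb2, which form gap junctions as Gja1 does, were lower in dediHeps than in FH (-4.20 ± 0.65 and -6.27 ± 0.77) and higher in aggregates than in dediHeps (3.32 ± 0.59 and 3.89 ± 0.73), where Gja1 was lower. Il1rap, the co-receptor of Il1rl1, was lower in dediHeps (-5.84) and higher in dediHep-BOs than in dediHep-SOs (2.78). Cd44, a receptor of Spp1, was lower at 3 h (-4.64) and higher from 1 day (2.84) to 14 days (5.59), and the integrin gene Itgav was lower in dediHep-BOs than in dediHep-SOs (-2.27) and higher in FIPC-SOs than in ISC-BOs (2.23).
Against FH 1 of 8 was lower at 3 h, 3 were higher and 3 lower at 1, 2 and 14 days, and 2 were higher and 3 lower at 4 and 7 days and in dediHeps. Itgb3 was the only one called in dediHep-SOs against dediHeps (-4.56) and Gjb1 the only one in dediHep-SOs against FIPC-SOs (2.06). None was called in dediHep-BOs against ISC-BOs, in CLiPs or with verteporfin, and the difference by origin had Il1rap (3.04) and Gjb1 (-2.10). Of all genes, 6.91% were called at 3 h, 17.4% to 29.5% at the later times and 25.7% in dediHeps against FH. In dediHep-SOs 8.76% were called against dediHeps and 8.91% against FIPC-SOs, and 9.45% were called in the difference by origin.

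The genes most like each member were sought by the Pearson r of log2(CPM + 1) over the 16 condition means, among 14655 genes. The conditions share cultures and media, so these values describe and carry no test. Ly6a had Ly6i (r = 0.921), a paralog on which reads could be shared, followed by I830127L07Rik (0.918) and Cdh13 (0.905). Prom1 had Rnpep (0.968), Soat1 (0.953) and Fzd2 (0.952), Epcam had the epithelial splicing regulator Esrp1 (0.978), Spint1 and Sowaha (both 0.971), and Clu had Rdx (0.972), Fn1 (0.964) and Dapk1 (0.957).
For Spp1 the nearest were Runx2 (0.899), Bicc1 (0.895) and Rab34 (0.878). Il33 had Eya2 and Glrp1 (both 0.819) and Ctse (0.814), Gja1 had Metap1d (0.841), Nexmif (0.835) and Slc4a11 (0.766), and Ly6d had Kctd9 (0.807), Usp46 (0.801) and Cct7 (0.782). Among the members themselves, Epcam and Prom1 (0.841) and Ly6a and Prom1 (0.812) lay closest, Clu and Epcam ran against each other (-0.724), and the 2 Ly6 genes showed no relation (0.058).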

How the data were processed

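The authors sequenced 3′ ends of transcripts by CEL-seq2 and deposited a matrix of UMI counts per Ensembl gene, whole numbers without normalization. The submitters' processing notes name bcl2fastq 2.20, Bowtie2 2.3.1, HTSeq 0.6.0 and GRCm38. The annotation used for counting and any filter on libraries are not given in the sources used here. Columns were assigned to samples by their labels, and 0 columns were left out. Of 46078 identifiers 45143 were matched to a symbol of GENCODE M21.

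The 8 members were followed by rule in every comparison, and the members and gene lists were chosen with earlier results of these data known. From each list at most the 3 called genes with the largest absolute log2 fold change were named per comparison, apart from 1 gene that is not reported here. For likeness, the 3 genes with the highest Pearson r of log2(CPM + 1) were named.

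Groups were compared by quasi-likelihood in edgeR (version 4.0.16, R version 4.3.3) with TMM factors, filterByExpr (minimum count 10, minimum total 15) and Benjamini-Hochberg adjustment over all genes tested. The 6 time points and FH were fitted together, the other pairs on their own libraries, and the difference by origin on the 4 organoid groups. Alternatives were DESeq2 1.42.0, RLE factors, no low-count filter, a correction for repeated UMIs, all 49 libraries in one fit, a replicate block and leaving out each library. The culture codes paired aggregates with dediHeps, whose deviations from the group means correlated at 0.183, 0.248 and 0.359. The fits were tested on simulated data. Ratios of few counts carry 95% intervals for counting error only. Libraries had 861047 to 3872936 counts, and replicates differed by more than counting noise (chi-square per degree of freedom 5.62 to 68.0 over 54 pairs). Lists of 6 markers each for endothelial cells, leukocytes, mesenchyme, cholangiocytes, hepatocytes and intestinal epithelium were summed per library.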

Additional observations from a re-analysis of the deposited data

Results flagged for a closer look

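Ly6a in the fourth ISC-BO library was at 1.37 CPM, far from the other 3 at 15.7 to 16.3 CPM. In the third dediHep library Epcam was at 32.7 CPM where the other 4 held 1.45 to 3.66 CPM, and Ly6d at 0.309 CPM, which is a single count where the others had none. How often such gaps arise by chance among the 128 combinations of gene and condition was not measured. The third dediHep library also had the highest sum of the 6 intestinal epithelial genes in its group, 1609 CPM.

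The step from spherical to budding form differed between organoids of liver and of gut origin in 3 of the 8 genes by edgeR's FDR, with a difference of 4.46 on the log2 scale for Gja1 (FDR = 0.061), 0.92 for Epcam (FDR = 0.0895) and -1.98 for Prom1 (FDR = 0.00626). Of all 12379 genes tested, 2269 had an FDR below 0.1. With the fold threshold added, 1 of the 8 was called, where 9.45% of all genes were. The value for Gja1 rests on a group without counts. Origin cannot be told apart here from the Cdx2 retrovirus of dediHep-BOs or from the fetal and adult donors of the gut organoids.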

How the results depend on the processing

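Over the members and comparisons, 643 of 692 values under another setting kept their direction and their side of the thresholds, 23 passed them newly, 8 no longer did and 18 turned in sign, and the causes were not tested unless the setting shows them. The count of members called at 3 h went from 2 to 1 with RLE factors or all 49 libraries in one fit. In dediHeps against FH it went from 3 to 6 without the low-count filter or with all 49 libraries. The added calls were Ly6a, Gja1 and Epcam, and Epcam, with no count in FH, could only come out higher. In aggregates the count went from 2 to 1 with a replicate block by title number, whose deviations gave no pairing of all 3 numbers in any comparison with 3 pairs, and to 4 with all 49 libraries. With the replicate block by culture it was 3 in aggregates and 4 in dediHep-SOs against dediHeps, where the cultures' deviations did not correlate (-0.511, 0.048 and 0.013). For verteporfin the deviations of the 2 numbers correlated at 0.445. In CLiPs the count went from 1 to 2 with DESeq2 or without the filter and to 3 with all 49 libraries. In the difference by origin it went from 1 to 2 with RLE factors, DESeq2, the UMI correction or the replicate block by title number, and to 3 without the filter. The shares of all genes called under these settings are not given here, so these counts describe the settings and not the members.

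Signs turned mostly in values near 0. At 3 h they were 0.0033 (RLE) and 0.0063 (DESeq2) for Ly6d and 0.0035 (RLE) for Gja1, and at 1 day Gja1 came to 0.032 without the filter, 0.0012 with the UMI correction and 0.034 with all 49 libraries. The UMI correction gave Clu 0.25 at 1 day, 0.74 at 2 days, 0.97 at 4 days, 1.29 at 7 days, -0.27 with verteporfin and -0.29 in the difference by origin, and Epcam 0.026 in FIPC-SOs against ISC-BOs. Clu with verteporfin was -0.012 without the filter and -0.013 with all 49 libraries. With the replicate block by title number Epcam was 0.048 in FIPC-SOs against ISC-BOs, and Ly6a and Prom1 were 1.04 and 0.39 in CLiPs.

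Leaving out 1 library kept 713 of 787 values, while 17 newly passed, 29 no longer did and 28 turned in sign. Counts of members called ranged from 1 to 2 at 3 h, 3 to 4 at 1 and 2 days, 4 to 5 at 4 days, 3 to 5 at 7 days, 2 to 3 at 14 days, 3 to 4 in dediHeps, 0 to 2 in aggregates, 3 to 5 in dediHep-SOs against dediHeps, 6 to 7 in dediHep-BOs against dediHep-SOs, 2 to 4 in dediHep-BOs against ISC-BOs, 0 to 2 in CLiPs, 0 to 1 with verteporfin and 0 to 2 in the difference by origin, and stayed at 5 and 6 in the comparisons with FIPC-SOs. Values that turned ranged from -2.84 to 2.81 (Ly6d), -0.19 to 0.24 (Clu) and -0.80 to 0.54 (Gja1) at 3 h, -0.70 to 0.25 (Gja1, 1 day), -0.42 to 1.95 (Il33, 2 days), -0.59 to 0.89 (Gja1, 4 days), -0.77 to 0.58 (Gja1, 7 days) and -0.057 to 0.79 (Clu, 14 days). In dediHep-SOs Gja1 ranged from -0.65 to 0.34, in FIPC-SOs against ISC-BOs Epcam from -0.16 to 0.054 and Prom1 from -0.11 to 0.42, in CLiPs Ly6a from -1.12 to 0.34 and Epcam from -0.12 to 2.14, and with verteporfin Clu from -0.091 to 0.12 and Il33 from -0.79 to 0.70.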
